A study of Rattus norvegicus with 6 samples.

Results

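The genes described are 10 genes of the BMP and activin branch of the TGF-β superfamily and of its target genes, namely Gdf15, Bmp2, Bmp4, Bmp7, Inhba, Inhbb, Id1, Id2, Id3 and Smad6. They were found by gene symbol in the deposited count table, where 10 of 10 had a row among 18930 rows. RNA was sequenced from NRK-52E cells, an established epithelial line from normal rat kidney labelled as wild type. The Control group holds 3 samples of vehicle-treated cells, and the STZ group holds 3 samples of cells given streptozotocin, a DNA-alkylating glucosamine nitrosourea, at 10 mM for 24 h. The labels do not say whether samples came from separate cultures, so p-values measure the spread between these samples, which may be technical. Values listed for a group are always in the order of its replicates 1, 2 and 3, and SE stands for the standard error of a log2 fold change (STZ minus Control).

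BMPs and activins are secreted dimers that bind paired type I and type II receptor kinases at the cell surface. BMP receptors mainly phosphorylate Smad1, Smad5 and Smad9, activin receptors mainly Smad2 and Smad3, and both groups join Smad4 in the nucleus. Id1, Id2 and Id3 are classical target genes of the BMP branch and encode helix-loop-helix proteins without a DNA-binding region, which hold E proteins away from DNA, while Smad6 encodes an inhibitory Smad that BMP signals induce as feedback. In the kidney, BMP7 is known as a differentiation factor of the nephron, activin A, the dimer of the Inhba product, as a signal in injured tubules, and GDF15 as a stress-induced secreted protein whose gene is a target of p53 and of the integrated stress response.

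Total counts were between 10430924 and 15191349 per sample, and the spread between samples of a group amounted to a common biological coefficient of variation of 3.25%. Levels are given in CPM, the counts scaled to a common library size by edgeR's TMM method, and members are not ranked by level because no transcript lengths were used. Of the epithelial markers, Krt8 and Tjp1 were abundant, with mean levels of 1149 and 612 CPM in Control, whereas Cdh1 had 2.58 CPM, Krt18 and Cldn4 stayed under 1 CPM in every sample, and Epcam and Krt19 had no row. The epithelial list summed to 1706 to 1793 CPM in Control and 2285 to 2291 CPM in STZ, mostly through Krt8, which reached a mean of 1604 CPM in STZ. Cdh1 went the other way, to 1.64 CPM in STZ (log2 fold change -0.69, adjusted p = 0.0296 by edgeR), and the part of these markers in the results was not tested. Among proximal tubule markers, 5 of 7 (Lrp2, Cubn, Slc34a1, Slc5a2 and Slc2a2) stayed under 1 CPM in every sample, with only Aqp1 and Ggt1 above, and the list summed to 57.8 to 60.4 CPM in Control and 74.9 to 87.1 CPM in STZ. That sum joins opposite changes, since Aqp1 fell from 13.1 to 5.43 CPM and Ggt1 rose from 45.1 to 75.1 CPM (log2 fold changes of -1.25 and 0.73). The fibroblast markers summed to 104 to 116 CPM in Control and to 59.6 to 69.6 CPM in STZ. Col3a1 had the largest fall of these markers, from a mean of 53.9 to 21.3 CPM. Col1a2, Pdgfra and Thy1 stayed under 1 CPM in every sample, and the part of the fibroblast markers in the results was not tested. Macrophage markers summed to 102 to 104 CPM in Control and to 121 to 129 CPM in STZ, nearly all of it Cd14, with Ptprc, Csf1r and Adgre1 under 1 CPM. Endothelial markers summed to at most 1.13 CPM. All samples were of the NRK-52E line, and no separate cell types were measured. In RNA from whole cultures, fewer cells of a type and less RNA per cell cannot be told apart.

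Promoter windows of 4 members are printed first. Id1 and Id3 are shown because Id3 fell while Id1 did not pass the test described below. Inhbb had the smallest p among the ligand genes, and Gdf15 had the largest fold change. The windows run from 250 bases before to 50 bases after the RefSeq start site in build GRCr8, 5′ to 3′ on the strand of the gene, and Gdf15 has a pair of start sites of which the downstream one is shown. Capitals mark matches on either strand to GGCGCC (the core of a BMP response element), CAGAC (the Smad box), CANNTG (the E-box), TGATGCAA (the amino acid response element used by ATF4) and the p53 half-site, and no marked matches overlap.
Id1, chr3:161671314-161671613, plus strand: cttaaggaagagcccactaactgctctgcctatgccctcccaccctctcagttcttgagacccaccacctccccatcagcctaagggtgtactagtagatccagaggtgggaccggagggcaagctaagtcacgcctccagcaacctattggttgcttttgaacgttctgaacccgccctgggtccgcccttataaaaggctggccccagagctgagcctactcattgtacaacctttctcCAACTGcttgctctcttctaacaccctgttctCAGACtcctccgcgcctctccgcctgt
Id3, chr5:153656041-153656340, plus strand: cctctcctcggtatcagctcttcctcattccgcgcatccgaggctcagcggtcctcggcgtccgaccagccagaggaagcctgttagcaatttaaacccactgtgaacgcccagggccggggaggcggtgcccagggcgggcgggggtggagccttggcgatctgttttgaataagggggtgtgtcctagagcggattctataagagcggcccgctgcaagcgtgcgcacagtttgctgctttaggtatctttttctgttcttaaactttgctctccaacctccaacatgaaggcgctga
Inhbb, chr13:33089324-33089623, minus strand: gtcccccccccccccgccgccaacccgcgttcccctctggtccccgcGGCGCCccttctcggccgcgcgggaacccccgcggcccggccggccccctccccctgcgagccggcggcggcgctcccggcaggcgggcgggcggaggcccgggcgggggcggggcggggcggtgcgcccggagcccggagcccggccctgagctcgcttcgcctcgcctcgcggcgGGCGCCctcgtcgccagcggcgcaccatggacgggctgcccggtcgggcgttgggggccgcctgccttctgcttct
Gdf15, chr16:18839015-18839314, plus strand: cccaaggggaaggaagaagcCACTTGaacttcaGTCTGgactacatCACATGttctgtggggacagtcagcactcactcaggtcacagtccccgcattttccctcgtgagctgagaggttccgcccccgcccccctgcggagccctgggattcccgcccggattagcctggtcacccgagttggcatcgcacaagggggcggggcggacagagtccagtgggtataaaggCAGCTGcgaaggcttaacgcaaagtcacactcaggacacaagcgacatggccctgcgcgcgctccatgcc
Inhbb held 2 copies of GGCGCC, which begin 203 and 26 bases before the start site, in a window of 84.3% G and C, and 3688 of all 33469 promoter windows hold at least 1 copy. None of the windows of Id1, Id2, Id3, Bmp4, Inhba and Gdf15 held this core. Id1 held 1 Smad box, 24 bases after its start site, and 1 E-box, 9 bases before it, while the Id3 window held no match to any of the motifs. The downstream window of Gdf15 held 1 Smad box and 3 E-boxes. A Smad box is found in 50.1% of all windows and an E-box in 72.1%, so such matches are frequent. No window of the 7 members in the promoter table held the amino acid response element, present in 0.795% of all windows, or the p53 half-site, present in 7.98%. These matches describe letters in a short window only.

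Of the 10 members, 7 passed the filter on low counts (edgeR's filterByExpr), and Gdf15, Bmp7 and Inhba did not. Among the 7 tested, Bmp2, Bmp4 and Inhbb rose and Id3 and Smad6 fell in STZ-treated cells in edgeR's quasi-likelihood test at a threshold of 0.05 for p-values adjusted across the whole table by the Benjamini-Hochberg method, while Id1 and Id2 did not pass. Among all 11870 genes tested, 25.9% were higher and 25.1% lower by the same rule, so a call in either direction was common in these data, and 3 higher and 2 lower of 7 are to be read against that. Requiring also an absolute log2 fold change over 1, the threshold of the study, left 0 of 7 members by edgeR, against 3.37% of all genes, while 7 of 7 members and 6636 of the 11870 genes tested had an unadjusted p under 0.05. With DESeq2 and limma-voom it also left 0. The median log2 fold change of the 7 members was 0.10, between -0.31 and 0.71, and that of all genes tested was -0.01. All STZ samples lay above all Control samples in CPM for 3 members and below them for 1, against 28.6% and 27.7% of all genes tested.

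**Figure D1:**
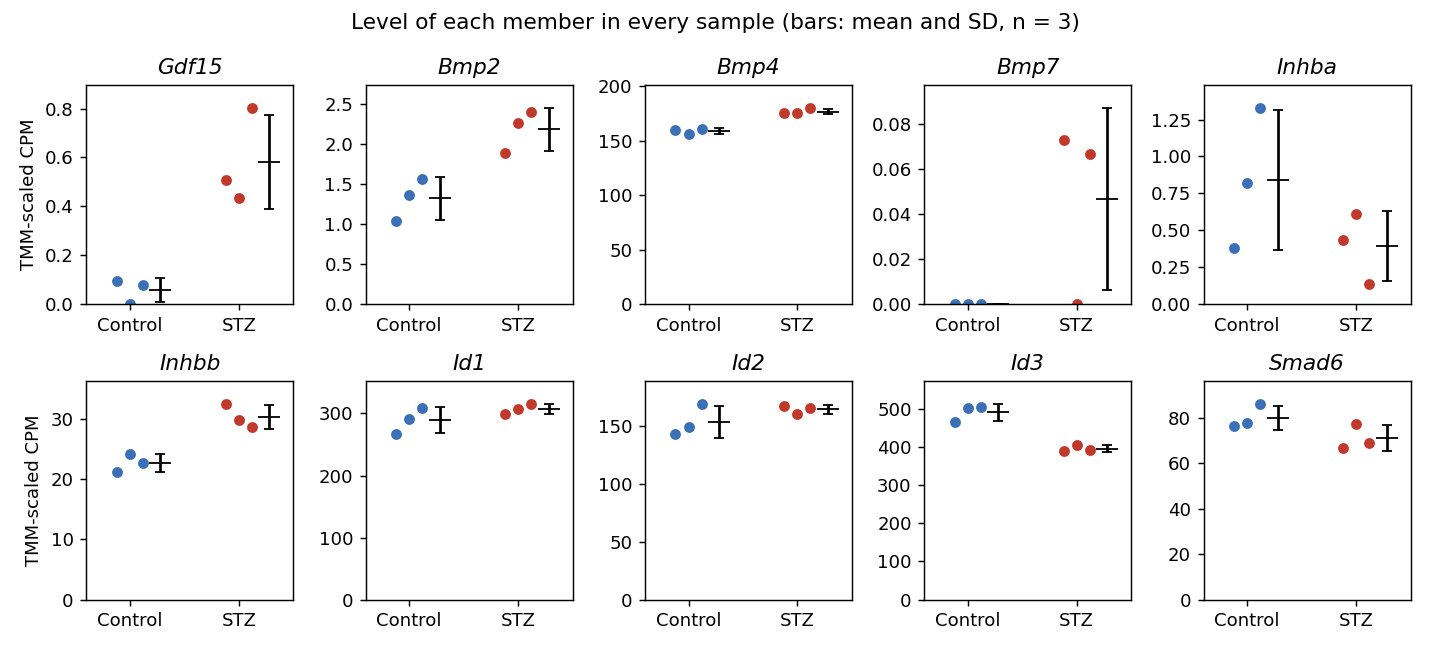
TMM-scaled CPM of the 10 members (vertical axes from 0, each with its own scale) in 3 Control samples (blue) and 3 STZ samples (red), with the mean and SD of each group beside the points. The groups were apart for Gdf15, Bmp2, Bmp4, Inhbb and Id3 and overlapped for Bmp7, Inhba, Id1, Id2 and Smad6.

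Gdf15 encodes a divergent secreted ligand of the superfamily that signals through GFRAL and RET rather than through Smads. Its reads numbered 1, 0 and 1 in Control and 7, 5 and 12 in STZ, which corresponds to 0.094, 0 and 0.078 CPM against 0.51, 0.43 and 0.80 CPM. Every STZ sample was above every Control sample, at levels that remained under 1 CPM. Summed over the groups, 2 reads stood against 24, a ratio of 10.3 after library scaling with a 95% exact binomial interval of 2.55 to 89.6 that covers counting error only. In a fit without the filter, chosen after the counts had been seen, the log2 fold change was 3.15 (SE 0.87, adjusted p = 0.0015 by edgeR's quasi-likelihood test), and 16.3% of all 18930 genes were higher and 3.09% passed both thresholds in that fit. The adjusted p was 1.9e-04 to 0.034 over the 15 other fits that gave one, including a fit with a minimum of 0.5 CPM in 1 sample, which Gdf15 met only through STZ samples, while DESeq2's Wald test returned no adjusted p for this gene. In GRCr8 the span of Gdf15 overlaps Lrrc25, which had 0 to 3 reads per sample, and no source used here says whether counting used strand.

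Both stimuli known to act on Gdf15 were represented by lists of genes. These lists were chosen with earlier results of these data known, so their counts are a description only. Among all genes tested, 25.9% were higher, 25.1% were lower and 3.37% passed both thresholds. Of 9 p53 target genes tested, 8 rose and 7 of these passed both thresholds, with a median log2 fold change of 1.66. Cdkn1a, which encodes the cell-cycle inhibitor p21, went from 232 ± 4.19 CPM in Control to 1298 ± 23.0 CPM in STZ (SD, n = 3 each), a log2 fold change of 2.49 (SE 0.04, adjusted p = 1e-39 by the same edgeR test). Sesn1, named after its value was seen, was the exception, at -0.18 (SE 0.10, adjusted p = 0.134 by that test). Of 8 integrated stress response genes, 5 rose and 1 fell, with a median log2 fold change of 0.43, and 1 passed both thresholds. That gene was Atf3, a stress-induced transcription factor named after its values were seen, which rose from 2.79 to 9.18 CPM (log2 fold change 1.71, SE 0.17, adjusted p = 1.6e-11 by edgeR). Ddit3, which encodes the stress factor CHOP, rose from 22.1 ± 1.67 to 39.5 ± 1.06 CPM (SD, n = 3 each), whereas Psat1, an enzyme of serine synthesis, fell from 161 ± 9.49 to 83.5 ± 3.57 CPM. Atf4 itself, likewise named afterwards, had a log2 fold change of -0.01. Neither list was tested as a cause of the Gdf15 reads. The receptor genes Gfral and Ret had no row in the table.

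**Figure D2:**
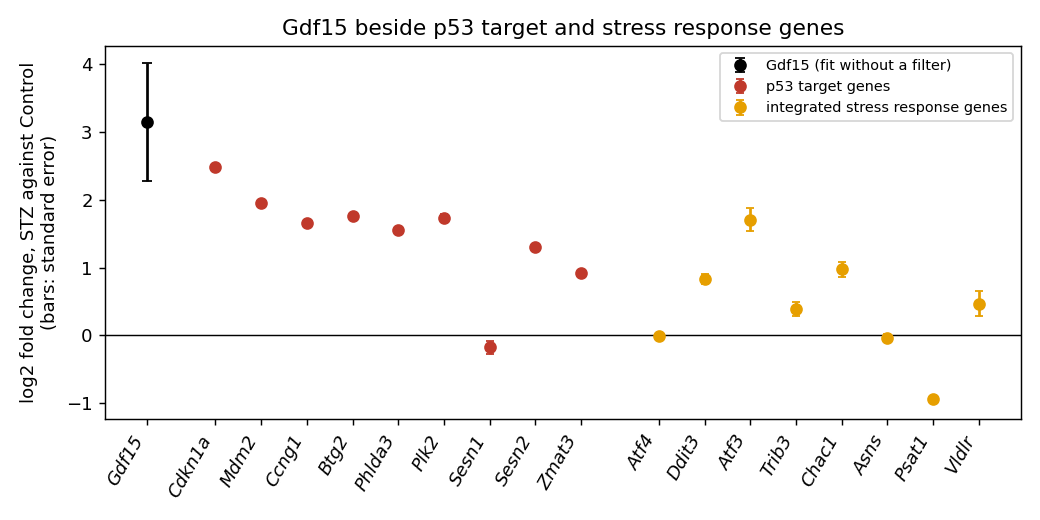
Log2 fold changes (vertical axis) of Gdf15 from the fit without a filter, of 9 p53 target genes and of 8 integrated stress response genes, with standard errors as bars. Gdf15 stood at 3.15 with a standard error of 0.87, and the genes of the p53 list lay between -0.18 and 2.49.

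By Pearson correlation of log2 CPM over the 6 samples, the genes outside the lists most like Gdf15 were Psmd8 (r = 0.996), Bloc1s2 (r = 0.995) and Eloa (r = 0.995). These values describe 6 points in 2 groups, 541 genes had r over 0.95, and with 2 Control reads the pattern of Gdf15 within a group carries little information.

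Bmp2 and Bmp4 encode closely related BMP ligands. Bmp2 was low, with 1.04, 1.36 and 1.56 CPM in Control and 1.89, 2.26 and 2.40 CPM in STZ, from 11 to 36 reads per sample. The groups did not overlap, and the log2 fold change was 0.71 (SE 0.28, adjusted p = 0.0309 by edgeR's quasi-likelihood test). This call was lost without Control replicate 1 (adjusted p = 0.128 in edgeR), Control replicate 2 (0.0664), STZ replicate 2 (0.0691) or STZ replicate 3 (0.111), and under DESeq2's Wald test (0.114). Bmp4 was abundant, with 160, 156 and 161 CPM in Control and 176, 175 and 180 CPM in STZ. Its groups did not overlap, and it rose by a log2 fold change of 0.16 (SE 0.04, adjusted p = 0.0014 by the edgeR test). Of all genes tested, 57.6% had a larger absolute log2 fold change than Bmp4 and 7.23% a larger one than Bmp2. In GRCr8 the span of Bmp4 overlaps a long non-coding RNA.

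Bmp7, the renal differentiation factor, had 0 reads in every Control sample, which allows up to 0.087 CPM at 3 counts over the group, and 1, 0 and 1 reads in STZ. Both groups were at or under that floor, so a difference was not detectable at this depth.

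Inhba and Inhbb encode the β subunits from which activins A and B are made. Inhba had 4, 9 and 17 reads in Control and 6, 7 and 2 in STZ, or 0.38, 0.82 and 1.33 CPM against 0.44, 0.61 and 0.13 CPM. The groups overlapped. In the fit without the filter the log2 fold change was -1.19 (SE 0.51, adjusted p = 0.0605 by edgeR's quasi-likelihood test), and the adjusted p was under 0.05 in 3 of 16 other fits. Those were the fits without Control replicate 1 (0.0146) and without STZ replicate 2 (0.0324) and the edgeR likelihood ratio test (0.0445), whereas without Control replicate 3 the log2 fold change was -0.67 (adjusted p = 0.532 by edgeR). Inhbb was higher in every STZ sample, with 21.2, 24.1 and 22.7 CPM in Control and 32.4, 29.8 and 28.6 CPM in STZ. It rose by a log2 fold change of 0.42 (SE 0.08, adjusted p = 2e-05 by the edgeR test). Although this was the smallest p among the ligand genes tested, 19.8% of all genes tested had a larger absolute log2 fold change.

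Smad6, the inhibitory Smad of the BMP branch, had 76.3, 77.8 and 86.0 CPM in Control and 66.6, 77.4 and 69.1 CPM in STZ. STZ replicate 2 lay within the range of Control, so the groups overlapped. The log2 fold change was -0.18 (SE 0.06, adjusted p = 0.0065 by edgeR's quasi-likelihood test), and 52.3% of all genes tested had a larger absolute one. The call of Smad6 was lost without Control replicate 3 (adjusted p = 0.0888 in edgeR) or STZ replicate 1 (0.0760). Smad7, which encodes the other inhibitory Smad, moved with it, from 68.2 ± 5.12 to 60.3 ± 0.23 CPM (SD, n = 3 each), a log2 fold change of -0.18 (SE 0.06, adjusted p = 0.0059 by that test).

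Of the 3 Id genes, Id3 fell, and Id1 and Id2 did not pass the test. Id1 had 268, 291 and 309 CPM in Control and 300, 308 and 315 CPM in STZ. Its groups overlapped, and its log2 fold change of 0.09 (95% interval 0.00 to 0.17) did not pass the test (adjusted p = 0.0860 by edgeR's quasi-likelihood test). Id2 overlapped likewise, with 143, 149 and 169 CPM in Control and 167, 160 and 166 CPM in STZ, a log2 fold change of 0.10 (95% interval 0.00 to 0.19, adjusted p = 0.0877 by the edgeR test). Without Control replicate 3, the highest Control sample for both genes, Id1 and Id2 passed at log2 fold changes of 0.14 and 0.17 (adjusted p = 0.0050 and 0.0015 by edgeR). Id3 was lower in every STZ sample, with 465, 501 and 504 CPM in Control and 389, 406 and 391 CPM in STZ. It fell by 0.31 on the log2 scale (SE 0.04, adjusted p = 3.3e-09 by the edgeR test), the smallest p of the members. A larger absolute log2 fold change was found for 30.4% of all genes tested. Id4, the remaining member of the family, had 12.03 ± 0.51 CPM in Control and 10.5 ± 0.51 CPM in STZ (SD, n = 3 each) and did not pass (log2 fold change -0.19, adjusted p = 0.151 by edgeR). In GRCr8 the span of Id1 overlaps a long non-coding RNA, so reads of that pair may not be fully separated.

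Ratios of reads within a sample do not depend on library scaling and were used to compare the Id genes with each other. Reads of Id3 over Id1 gave 1.74, 1.72 and 1.63 in Control and 1.30, 1.32 and 1.24 in STZ. Reads of Id3 over Id2 gave 3.26, 3.36 and 2.98 in Control and 2.33, 2.54 and 2.36 in STZ. Both ratios were lower in every STZ sample, whereas Id1 over Id2 was 1.89 ± 0.06 in Control and 1.87 ± 0.07 in STZ (SD, n = 3 each) and overlapped. With 3 samples against 3 the exact two-sided permutation p was 0.1 for each ratio with Id3, the smallest this design allows, and 0.8 for Id1 over Id2. Over the 6 ratios computed, the Benjamini-Hochberg values were 0.15 for the ratios with Id3 and 0.96 for Id1 over Id2, so none could pass a threshold of 0.05. Smad6 over Smad7 was 1.17 ± 0.03 in Control and 1.18 ± 0.10 in STZ (SD, n = 3 each, exact permutation p = 1).

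**Figure D3:**
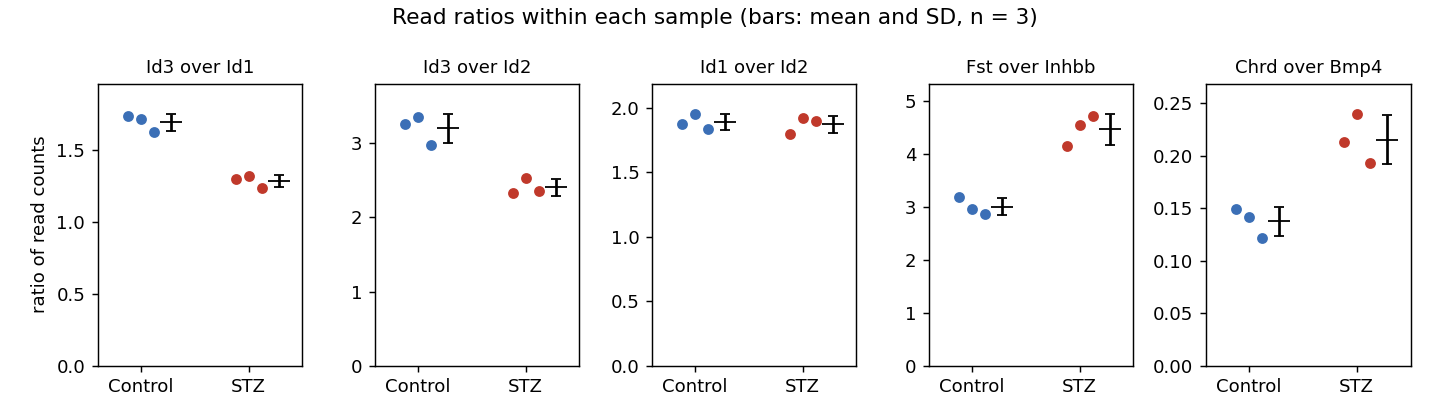
Ratios of read counts of gene pairs within each sample (vertical axes from 0) for 3 Control samples (blue) and 3 STZ samples (red), with the mean and SD of each group. Id3 over Id1 and Id3 over Id2 were lower in all STZ samples, Id1 over Id2 overlapped, and Fst over Inhbb and Chrd over Bmp4 were higher in all STZ samples.

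The partners of the Id proteins were measured as well. Tcf3, which encodes the E proteins E12 and E47, fell from 111 ± 2.10 to 76.7 ± 3.36 CPM (SD, n = 3 each), a log2 fold change of -0.54 (SE 0.05, adjusted p = 1e-12 by edgeR's quasi-likelihood test). Tcf12 rose by 0.19 (adjusted p = 0.0011 by that test), and Tcf4, at -0.08, did not pass (adjusted p = 0.544). Of the E protein genes, then, 1 rose, 1 fell and 1 did not pass, where 25.9% of all genes tested were higher and 25.1% lower.

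The other genes of the pathway came from 5 lists with 73 genes beside the members, of which 60 had a row and 39 passed the filter. Of the 39, 13 rose, 11 fell and 15 did not pass, with a median log2 fold change of 0.06. The background of all genes tested was 25.9% higher and 25.1% lower.

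Of the other ligands, 5 of 22 passed the filter. Inhbe, which encodes another activin β subunit and is known as a stress-induced gene, rose from 4.97 ± 0.72 to 8.49 ± 0.44 CPM (SD, n = 3 each), a log2 fold change of 0.76 (SE 0.15, adjusted p = 3.9e-05 by edgeR's quasi-likelihood test). The others tested, Gdf1, Gdf11, Inha and Bmp6, did not pass, with log2 fold changes between -0.34 and 0.37.

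Among receptors and co-receptors, 2 of 10 tested rose, 3 fell and 5 did not pass, against 25.9% higher and 25.1% lower among all genes tested. Eng, which encodes the co-receptor endoglin, had 2.07, 3.09 and 1.95 CPM in Control and 5.38, 5.39 and 5.14 CPM in STZ. It rose by a log2 fold change of 1.17 (SE 0.20, adjusted p = 5.8e-06 by edgeR's quasi-likelihood test), past both thresholds. Acvr2b, a type II activin receptor, had 3.30, 4.55 and 2.65 CPM in Control and 1.89, 1.82 and 1.33 CPM in STZ, and fell by 1.05 on the log2 scale (SE 0.25, adjusted p = 4.5e-04 by that test), also past both. Rgma, a BMP co-receptor, went from 27.8 ± 0.54 to 14.1 ± 0.65 CPM (SD, n = 3 each), with a log2 fold change of -0.98 (SE 0.09, adjusted p = 5.3e-13 by the edgeR test). Bmpr1a, a BMP type I receptor, was the remaining gene that fell, from a mean of 104 to 90.8 CPM. Its log2 fold change was -0.19 (SE 0.05, adjusted p = 5.8e-04 by the edgeR test). Rgmb, at 0.35, was the other gene that rose (adjusted p = 1.3e-05 by that test). The major type II receptors differed little, with log2 fold changes of -0.03 for Bmpr2 (adjusted p = 0.563 in edgeR) and 0.12 for Acvr2a (adjusted p = 0.338).

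All 11 genes of Smads and their cytoplasmic regulators were tested. Of these, 2 rose and 6 fell, against 25.9% higher and 25.1% lower among all genes tested. The 11 log2 fold changes lay between -0.35 and 0.23. Changes were thus small. Smad1 (0.22) and Smad3 (0.23) rose, and Smad5 (-0.13), Smad9 (-0.35) and the ubiquitin ligase gene Smurf1 (-0.21) fell. The rest of those that fell were Smad2 (-0.20), the shared Smad4 (-0.18) and Smad7, described above. The Smads of the BMP branch were thus called in both directions, and so were Smad2 and Smad3 of the activin branch. Calls in both directions were common among all genes tested. The adjusted p-values by edgeR's quasi-likelihood test were 0.0048 for Smad1, 0.0035 for Smad3, 0.0436 for Smad5, 0.0018 for Smad9 and 2.2e-05 for Smurf1. By the same test they were 0.0022 for Smad2 and 0.0014 for Smad4.

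Of the 9 extracellular and membrane antagonists tested, 6 rose and 2 fell, with a median log2 fold change of 0.24. Among all genes tested, 25.9% were higher and 25.1% lower, and the list was chosen with earlier results known. Fst, which encodes the activin-binding protein follistatin, had 67.4, 71.5 and 65.1 CPM in Control and 134, 135 and 135 CPM in STZ. Its level was thus 1.99-fold higher, a log2 fold change of 0.99 (SE 0.05, adjusted p = 3e-21 by edgeR's quasi-likelihood test), just under the fold-change threshold. Chrd, which encodes the BMP-binding protein chordin and was chosen after its values were seen, rose from 21.8 ± 2.15 to 38.1 ± 3.72 CPM (SD, n = 3 each), a log2 fold change of 0.80 (SE 0.08, adjusted p = 2.9e-11 by that test). Twsg1, another BMP-binding protein, fell by 0.26 on the log2 scale (adjusted p = 4.7e-07 by edgeR). Reads of Fst over Inhbb went from 3.004 ± 0.16 to 4.47 ± 0.29 and reads of Chrd over Bmp4 from 0.14 ± 0.01 to 0.22 ± 0.02 (SD, n = 3 each, exact permutation p = 0.1 for both). In all 3 STZ samples each antagonist had more reads relative to the ligand gene than in any Control sample. All 6 pairs were chosen after the values were seen.

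Of the 8 other BMP-Smad target genes tested, some of which also stand in the lists above, 3 rose and 2 fell, with a median log2 fold change of 0.20. Atoh8 rose from 40.6 ± 4.66 to 49.3 ± 0.26 CPM (SD, n = 3 each), a log2 fold change of 0.27 (adjusted p = 6.4e-04 by edgeR's quasi-likelihood test), while Smad9 fell. Target genes of the branch, the Id genes and Smad6 included, were thus called in both directions, as was common among all genes tested.

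**Figure D4:**
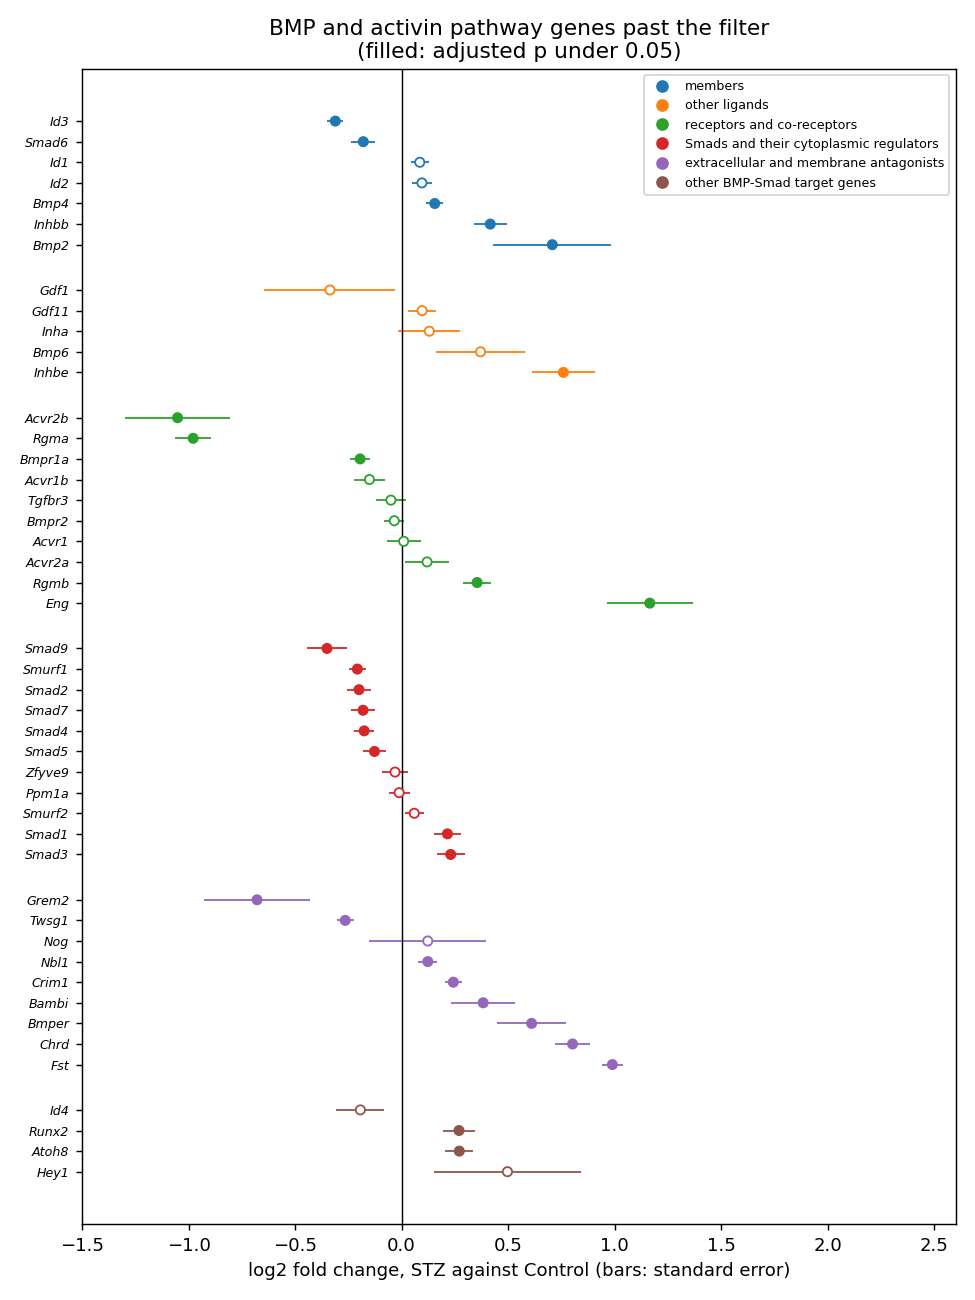
Log2 fold changes (horizontal axis) of the members and of the other pathway genes past the filter, by list, with standard errors as bars. Filled points have an adjusted p under 0.05, a gene in more than 1 list is drawn once, and the members lie between -0.31 and 0.71 while Acvr2b (-1.05) and Eng (1.17) lie farthest out.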

How the data were processed

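The authors extracted total RNA, prepared stranded mRNA libraries (TruSeq), aligned single-end reads with STAR 2.7.10a to Rnor6, assigned unique alignments to genes with featureCounts (Subread), and deposited these raw counts without normalization, 1 column per sample. Whether counting used strand is not given in the sources used here. Every row of the table holds at least 1 read, and no column was left over.

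From the counts, TMM scaling, the low-count filter (filterByExpr, default settings), dispersions and quasi-likelihood F tests came from edgeR 4.0.16 (R 4.3.3) over all genes, with Benjamini-Hochberg adjustment. Each SE is the size of the log2 fold change over the root of its F value. DESeq2 1.42.0 and limma 3.58.1 served as alternatives. The steps were tested on simulated counts. With totals between 10430924 and 15191349 counts per sample, genes under about 1 CPM rest on few reads.

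The members and lists were chosen with earlier results of these data known. Named genes are all members, for each list the gene of smallest p among those higher and among those lower, ligand, receptor, Smad and antagonist genes past both thresholds, the 3 genes most like Gdf15, and a fixed set of receptors, Smads and E proteins. Others, apart from the cell type markers, are marked in the text or make up the rest of a count. The p53 half-site was added to the motifs after the data had been seen, as were the ratios of reads. Promoter windows come from RefSeq (GRCr8), where 7 of the 10 members matched, and protein sequences were not used here. No samples of one group agreed within sampling noise (chi-square per degree of freedom at least 1.85). Alternatives were 3 filters, 3 scalings, 4 tests, a fold threshold of 0.5 in glmTreat, a replicate block and leaving out each sample.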

Additional observations from a re-analysis of the deposited data

How the results depend on the processing

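The log2 fold changes of the 7 members past the filter kept their direction in all 126 refits, and 110 also kept their side of the threshold, with 12 weaker and 4 stronger. For the 3 members under the filter, refitted without it, 42 of 45 outcomes were unchanged and 3, all of Inhba, were stronger. These refits were chosen after seeing the data.

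The number of members higher, 3, was 5 with the replicate block, where Id1 (adjusted p = 0.0435) and Id2 (0.0468) joined by edgeR's quasi-likelihood test, and ranged from 2 to 5 when single samples were left out. The number lower, 2, ranged from 1 to 3 in those fits, and the number past both thresholds, 0, from 0 to 1, the 1 being Inhba without Control replicate 1 or without STZ replicate 2, fits in which it passed the filter only through its higher Control samples. Without a filter, or with at least 0.5 CPM in 1 sample, 1 member (Gdf15) passed both, because these fits test it, and it met the 0.5 CPM minimum only through STZ samples, where it is high. Against an absolute log2 fold change of 0.5 (glmTreat), 0 members were higher and 0 lower, against 3.64% and 1.78% of all genes tested, with 0 members at an unadjusted p under 0.05, and of the other pathway genes 3 were higher and 1 lower, against 13 and 11. That test requires the change itself to exceed the threshold. All other settings left the counts within 1.5 times.

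Control and STZ share replicate numbers, but deviations of same-numbered samples correlated at only 0.0503, -0.026 and 0.0877 across 11125 genes. Of 6 samples, 3 correlated best with their own number. Such small correlations gave little sign of a pairing but cannot exclude a shared batch. The block was therefore kept as an alternative only. It changed no other call among the members past the filter. Under other scalings the median of all genes moved to between -0.04 and -0.01, by less than 0.1. Depth limits Gdf15, Bmp7 and Inhba, with 0 to 17 reads per sample.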
